A study of Mus musculus with 4 samples.

Results

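The cells described here were chosen by their transcripts as candidates for axial mesendoderm and node, the midline tissue of the mouse gastrula. A cell was taken when it held at least 1 unique molecular identifier (UMI, 1 counted transcript molecule) of *Foxa2*, at least 1 UMI of 1 or more of the partner genes *Chrd*, *Gsc*, *Noto*, *Shh* and *T*, no UMI of *Sox17*, and UMIs of fewer than 3 of the visceral endoderm genes *Cubn*, *Apob*, *Dab2*, *Apom* and *Spink1*. The rule took 193 of 11123 cells, 107 from the MS-LS library, 47 from the OB-EB library and 39 from the EHF library, and these are called axial cells below as a short name for the rule. The levels of its 12 genes chose the cells, so they are given as a description and nothing rests on them.

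Axial mesendoderm leaves the anterior end of the primitive streak and forms the prechordal plate, the node and the notochord under the midline of the embryo. Its cells secrete antagonists of bone morphogenetic protein (BMP) and *Nodal* signals and later the ligand *Shh*, and they pattern the neural plate above them. Pit cells of the node carry motile cilia, built under the forkhead factor *Foxj1*, whose leftward flow sets the left-right axis, while crown cells at its edge make *Nodal* and its antagonist *Dand5*.

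Every library came from embryos of genotype TnEGP-CreERT2/+; R26Rtdtomato/R26Rtdtomato, in which the *T* locus drives a Cre that works after tamoxifen and switches on a tdTomato reporter, and all pregnant females received tamoxifen by gavage (0.08mg/bw), so no untreated embryos were sampled. The 3 libraries were MS-LS (mid to late streak, collected at E6+21h, tamoxifen at E6+5h), OB-EB (no bud to early bud, E7+3h, tamoxifen at E6+21h) and EHF (early headfold, E7+14h, tamoxifen at E7+7h). Each held the pooled cells of several whole embryos, run through a droplet assay that reads the 3′ end of transcripts. A second EHF table differed from the first in 0 of 65128160 counts and spelled 21 gene names otherwise, so it was not a replicate.

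Each stage was thus 1 library, stage and library cannot be told apart, and no test between stages or groups was made. Levels are given as CPM, a gene's UMIs in a group of cells per 1000000 UMIs of that group, with exact Poisson 95% intervals. Shares of cells have exact binomial (Clopper-Pearson) 95% intervals. Both cover counting error only, not the variation between cells or embryos. A gene was called higher or lower than in the other cells of its library at 2-fold, with at least 20 UMIs in the axial cells or expected there from the other cells.

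The libraries held 3494 to 3994 cells and 12181436 to 20376539 UMIs. The axial cells summed to 710063, 184313 and 200985 UMIs at MS-LS, OB-EB and EHF, with medians of 5633, 3335 and 4569 per cell, so genes of low level were best measured at MS-LS. They made up 2.94% (95% interval 2.42 to 3.55) of the MS-LS cells, 1.18% (0.866 to 1.56) at OB-EB and 1.12% (0.795 to 1.52) at EHF. Pairs of libraries shared 12 to 18 barcodes, and none of these was an axial cell in both. Axial cells with *Xist* and no Y-linked UMI (25, 18 and 16) and the opposite (24, 7 and 7) were found at all 3 stages, so the cells came from embryos of both sexes.

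The partner genes that admitted the cells differed between the libraries. *Gsc*, a homeobox gene of the organizer, had a UMI in 63.6% of the axial cells at MS-LS, 27.7% at OB-EB and 2.56% at EHF. *Noto*, the homeobox gene of node and notochord, went the other way, with 5.61%, 34.0% and 46.2%. *T*, the streak and notochord gene Brachyury, had a UMI in 50.5%, 70.2% and 97.4%, and *Chrd*, a secreted BMP antagonist, in 25.2%, 27.7% and 33.3%. *Shh* was listed in the EHF table alone, where 18 of the 39 axial cells (46.2%) had a UMI of it. Their levels in the axial cells, in the same order of stages, were 154, 81.4 and 4.98 CPM for *Gsc*, 8.45, 114 and 209 for *Noto*, 125, 298 and 911 for *T* and 52.1, 125 and 114 for *Chrd*, with *Shh* at 149 at EHF. The commonest single combination was *Gsc* alone at MS-LS (38 cells) and *T* alone at OB-EB (14 cells) and EHF (8 cells).

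Trophoblast cells, taken as cells with at least 3 of 7 trophoblast genes (57, 11 and 235 cells), should lack these genes, and their shares are given as a background. *Gsc* had a UMI in 3.51%, 0% and 0% of them, *Noto* in 0%, 0% and 0.851% and *Foxa2* in 3.51%, 0% and 0.851%, although their median depth of 8004, 5745 and 7761 UMIs was above that of the axial cells. *T* reached 10.5%, 18.2% and 6.38% of the trophoblast cells, so *T* was the partner gene with the highest share there. Of the 11 *Foxa2* UMIs in the MS-LS trophoblast cells 9 were in 1 cell, and 1 EHF trophoblast cell held 12 *T* UMIs. What free RNA, or cells caught in pairs, add to these shares was not tested. The 11 OB-EB cells say little, since the interval of a 0% share among them runs to 28.5% and that of *T*, from 2 cells, from 2.28% to 51.8%. *Spink1*, a secreted protease inhibitor of visceral endoderm, was found in 73.8%, 61.7% and 33.3% of the axial cells and in 70.2%, 100% and 41.7% of the trophoblast cells, so its share of cells with a UMI read as background.

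Many cells lay near the thresholds. At MS-LS, OB-EB and EHF, 58, 37 and 30 axial cells held exactly 1 *Foxa2* UMI, and 36, 13 and 7 were admitted by 1 *Foxa2* UMI and 1 partner UMI. *T* was the only partner in 22, 14 and 8 cells. Just outside, 14, 11 and 0 cells were left out by exactly 1 *Sox17* UMI and 2, 0 and 0 by exactly 3 visceral endoderm genes. A further 81, 29 and 18 cells with *Foxa2* passed both exclusions and had no partner UMI.

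The label was checked with lists that held none of the rule's genes, one of 12 node and notochord genes and one of 14 anterior streak and prechordal genes. Summed over the list, the node and notochord genes were higher in the axial cells than in the other cells by 1.27 on the log2 scale (95% interval 0.97 to 1.55) at MS-LS, 2.20 (1.81 to 2.56) at OB-EB and 3.91 (3.72 to 4.09) at EHF. The anterior streak genes were higher by 1.14 (1.07 to 1.21), 1.16 (0.98 to 1.33) and 1.34 (1.12 to 1.56). The difference in the node list was thus largest at EHF, and that in the anterior streak list was of like size at all 3 stages. Against the cells with both *Foxa2* and *Sox17*, the most like group, the node list ratio was 0.13 (−0.35 to 0.62) at MS-LS, 0.53 (−0.07 to 1.15) at OB-EB and 2.26 (1.73 to 2.83) at EHF. At the first stages the node list thus did not separate the axial cells from these endoderm cells at this depth. The anterior streak list was lower in the axial cells than in these endoderm cells at all 3 stages, by −0.46 at MS-LS and −0.57 at OB-EB. It therefore does not bear out the label against them. The label could not be held for each cell either: at EHF the 8 cells admitted by *T* alone had 0 UMIs of *Foxj1*, *Foxa1*, *Nog* and *Bicc1* (interval 0 to 100.2 CPM for each), and a node list sum of 109 CPM (29.6 to 278) against 1663 (1471 to 1872) in the other axial cells.

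At MS-LS, 76 of 4214 genes tested (1.8%) were at least 2-fold higher in the axial cells than in the other cells and 171 (4.06%) were lower. Among the anterior streak genes, 8 of the 11 with enough UMIs were higher and none was lower, against a median log2 ratio of 0.02 for all genes. At least *Epha2* passed the minimum only through the axial cells, so this count describes the genes and supports nothing. *Lhx1*, a LIM homeobox gene of the head organizer, stood at 206 CPM (174 to 242) in the axial cells against 58.9 in the other cells. *Fst*, the secreted activin antagonist follistatin, stood at 208 (176 to 245) against 58.4, and *Eomes*, a T-box factor of the anterior streak, at 280 (243 to 322) against 127. *Hhex* and *Mixl1*, homeobox genes of anterior endoderm and streak, had log2 ratios of 1.70 (1.19 to 2.18) and 1.68 (1.34 to 2.01).

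Among genes with a UMI in at least 20% of the axial cells, the largest ratios at MS-LS were of other kinds. *Efcab10*, which encodes an EF-hand protein, led at a log2 ratio of 2.73 (2.20 to 3.22), from 60.6 CPM against 9.16. *Adamts9*, a secreted metalloprotease, followed at 2.27 (1.70 to 2.79), *Tgfbr3*, a co-receptor for TGF-β ligands, at 2.18 (1.63 to 2.70) and *Dact1*, an intracellular modulator of Wnt signals, at 2.11 (1.63 to 2.57). *Nrep*, the metalloprotease gene *Adam19*, the ephrin receptor gene *Epha2*, *Fst*, *Lhx1* and *Mlf1* completed the 10 largest, with ratios from 1.80 to 2.08. None of these 10 was found in more than 54.2% of the axial cells, so no single one marked them all. Below that share of cells, *1110017D15Rik* and *Foxj1* had larger ratios, 3.60 and 3.20, each from 18 cells.

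At OB-EB, 37 of 1490 genes (2.48%) were higher and 28 (1.88%) were lower. *Foxj1* had the largest ratio, 5.16 on the log2 scale (4.36 to 5.92), from 23 UMIs in 13 of the 47 axial cells, which is 125 CPM against 3.50 in the other cells. Next came *1110017D15Rik* at 4.35 (3.64 to 5.01), *Riiad1* at 3.86 (3.11 to 4.56) and *Efcab10* at 3.29 (2.55 to 3.96). *Rfx3*, a transcription factor of ciliary genes, had a ratio of 2.65 (2.02 to 3.22), and *Tmem107*, a protein of the ciliary transition zone, one of 2.42 (1.88 to 2.91). *Dgkk*, a diacylglycerol kinase, *Nrep*, *Dact1* and *Ppp1r1a*, an inhibitor of protein phosphatase 1, lay between 2.15 and 2.87. Anterior streak genes were measured beside them, with *Lhx1* at 320 CPM (244 to 413) against 125 and *Eomes* at 168 (114 to 239) against 55.9.

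At EHF, 123 of 1778 genes (6.92%) were higher and 51 (2.87%) were lower, and 6 of the 10 largest ratios belonged to the list of cilia genes described below. *Dynlrb2*, a dynein light chain, reached 373 CPM (294 to 468) against 2.97, a log2 ratio of 6.97 (6.46 to 7.49). *Fam183b* stood at 518 (423 to 627), a ratio of 6.43 (6.04 to 6.82), and *Foxj1* at 328 (254 to 418) against 4.16. Their UMIs were in 18 or 19 of the 39 axial cells, so these levels are means over cells with and without them. *Dnajb13* and *Tekt1*, parts of the ciliary axoneme, *Efcab1*, a calcium sensor of motile cilia, and *Pifo*, which acts at the base of cilia, had ratios from 5.97 to 6.29. *Vtn*, which encodes the matrix protein vitronectin, was at 5.79 (4.95 to 6.60), and *Samd3* and *1110017D15Rik* were at 6.08 and 6.14.

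In all, 8 genes were at least 2-fold higher at every stage, namely *1110017D15Rik*, *Cer1*, *Efcab10*, *Foxj1*, *Larp7*, *Ppp1r1a*, *Riiad1* and *Tmem107*. Of 1613 ranked genes with enough UMIs at both MS-LS and EHF, 18 were higher at MS-LS, 75 at EHF and 16 at both. At OB-EB all of the 8 but *Larp7* passed the minimum only through the axial cells, so the overlap describes these genes and supports nothing. *Larp7*, an RNA-binding protein of the 7SK particle, was the most widely detected, in 89.7%, 87.2% and 89.7% of the axial cells. Its level was 613 CPM (556 to 673), 917 (784 to 1066) and 1174 (1029 to 1334), against 223, 328 and 179 in the other cells. *Cer1*, a secreted antagonist of *Nodal*, BMP and Wnt ligands, stood at 118 (94.4 to 147), 109 (66.3 to 168) and 264 (198 to 345) against 49.8, 50.3 and 15.5.

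*Foxj1* (chr11:116330704-116335399, GRCm38, GENCODE M21 annotation) had 26 UMIs in 18 of 107 axial cells at MS-LS, 23 UMIs in 13 of 47 at OB-EB and 66 UMIs in 18 of 39 at EHF. Its level in them was 36.6 CPM (23.9 to 53.7), 125 (79.1 to 187) and 328 (254 to 418), while the other cells stood between 3.50 and 4.16. The EHF level was higher than the MS-LS level by 3.17 on the log2 scale (2.49 to 3.88) in the axial cells and by 0.06 in the other cells.

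A list of 29 cilia genes went the same way. Its summed level in the axial cells was 308 CPM (269 to 352) at MS-LS, 852 (724 to 996) at OB-EB and 3617 (3359 to 3890) at EHF, against 102, 108 and 134 in the other cells. The log2 ratio of the sums was 1.59 (1.38 to 1.80), 2.97 (2.73 to 3.21) and 4.76 (4.64 to 4.88). As a mean of per-cell shares it was 2.03, 3.34 and 5.03, outside these intervals, which cover the counting of pooled UMIs only. The difference between the stages was not tested. Of the 25, 27 and 28 list genes in the tables, 4, 3 and 10 had enough UMIs and all of these were higher. Most of them could pass the minimum only through the axial cells, so this count supports nothing, and the summed level is the measure to read.

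**Figure D1:**
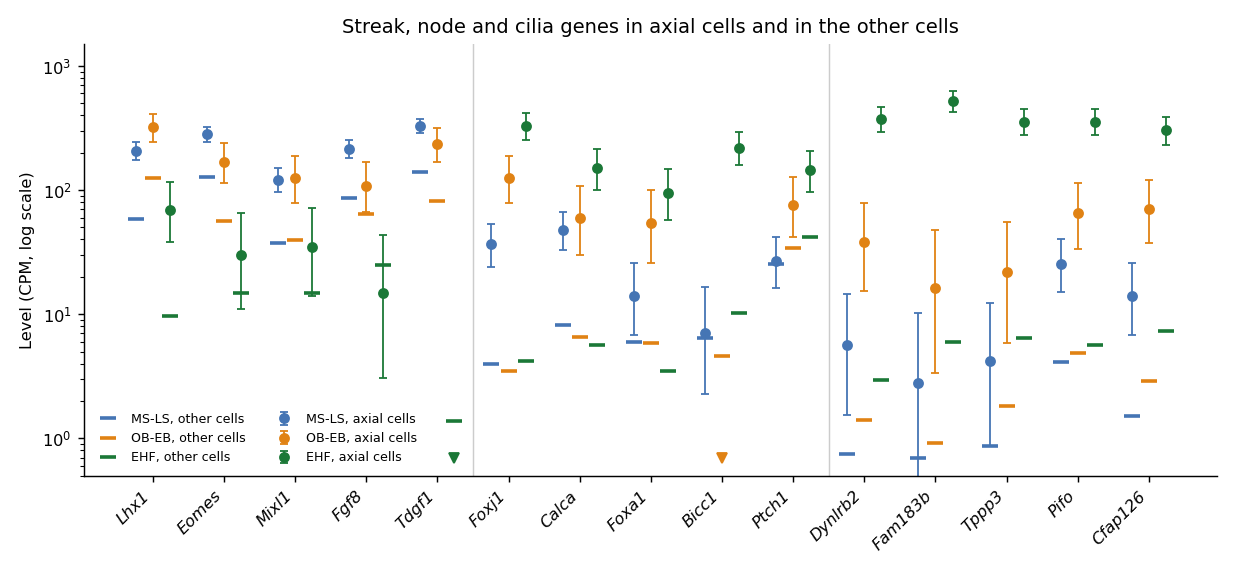
Level (CPM, log scale) of 5 streak and epiblast genes (*Lhx1*, *Eomes*, *Mixl1*, *Fgf8* and *Tdgf1*), 5 genes of node and notochord and 5 of cilia, in the axial cells (points with 95% counting intervals) and in the other cells of the same library (dashes), with a triangle at the bottom of the axis for a level of 0. The cilia genes on the right are at their highest at EHF, where *Dynlrb2* reached 373 CPM, while the axial cells' level of *Eomes* was 280 CPM at MS-LS and 29.9 CPM at EHF.

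Promoters of the cilia list were read to show the letters in front of its genes, whether or not a gene had enough UMIs for a call. The RFX factors that act with *Foxj1* bind a pair of inverted 6-base sites, searched here as GTTNCC followed after 0 to 3 bases by GGNAAC, in either strand, since the pair reads alike on both. In the RefSeq promoters of GRCm38.p6 (250 bases before to 50 after each listed transcript start), 4 of the 24 cilia genes with a promoter in the table held the pair (16.7%), against 253 of all 27025 genes (0.936%). A single site of either form was in 20 of the 24 (83.3%) and in 48.8% of all genes. A match is a description of the letters, not a measured binding site, and the list was not drawn at random. The 4 genes with the pair were *1110017D15Rik*, *Fam183b*, *Ift57* (a part of the intraflagellar transport particle) and *Pifo*, and the windows run from 60 bases before the pair to that transcript start, with the pair in capitals.
1110017D15Rik: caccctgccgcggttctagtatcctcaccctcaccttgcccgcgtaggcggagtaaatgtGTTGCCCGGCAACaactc
Fam183b: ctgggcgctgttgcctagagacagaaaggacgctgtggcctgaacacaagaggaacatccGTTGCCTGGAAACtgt
Ift57: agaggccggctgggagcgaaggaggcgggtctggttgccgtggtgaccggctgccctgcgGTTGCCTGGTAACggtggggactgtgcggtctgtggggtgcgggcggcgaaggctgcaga
Pifo: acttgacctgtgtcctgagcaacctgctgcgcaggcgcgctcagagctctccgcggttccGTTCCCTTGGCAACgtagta
The windows lie on GRCm38.p6 at chr4:41507765-41507842 (minus strand), chr11:58801961-58802036 (minus), chr16:49699174-49699293 (plus) and chr3:106001498-106001577 (minus). The pair began 18, 16, 60 and 20 bases before the RefSeq transcript start. For *1110017D15Rik* and *Pifo* this is the inner of 2 RefSeq starts and lies inside the gene, and in GENCODE M21 the *Ift57* gene begins just ahead of the pair, so these windows are not all upstream of the gene. In the axial cells of EHF these genes stood at 309 CPM (*1110017D15Rik*), 518 (*Fam183b*), 79.6 (*Ift57*) and 353 (*Pifo*), and *Ift57* had too few UMIs for a call.

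Cilia genes were then counted in single cells. An axial cell held UMIs of a median of 1 list gene at MS-LS (at most 9), 2 at OB-EB (at most 9) and 7 at EHF (at most 17). At least 3 of them were found in 24.3% (16.5 to 33.5), 38.3% (24.5 to 53.6) and 64.1% (47.2 to 78.8) of the axial cells, against 2.30%, 1.24% and 3.33% of the other cells. Trophoblast cells, of greater depth, showed 14.0%, 0% and 2.55%, so at MS-LS part of the share is of the size of background. With every cell thinned to 2000 UMIs the shares were 8.57%, 21.1% and 52.8% of the axial cells, after 2, 9 and 3 shallower cells were left out, 0.606%, 0.241% and 0.826% of the others, and 0%, 0% and 0.862% of the trophoblast cells. The order of the stages was the same after thinning.

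The rule missed part of the cells with many cilia genes. At EHF, 52 cells held at least 5 list genes and 21 of them were axial cells. All of the other 31 lacked a *Foxa2* UMI, 30 of them had *T*, 22 had *Chrd*, *Gsc*, *Noto* or *Shh*, and none had *Sox17*. At OB-EB 8 of 17 such cells and at MS-LS 10 of 26 were axial cells. The levels of the other cells thus contain such cells, and without them the log2 ratio of the cilia list at EHF was 5.25.

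**Figure D2:**
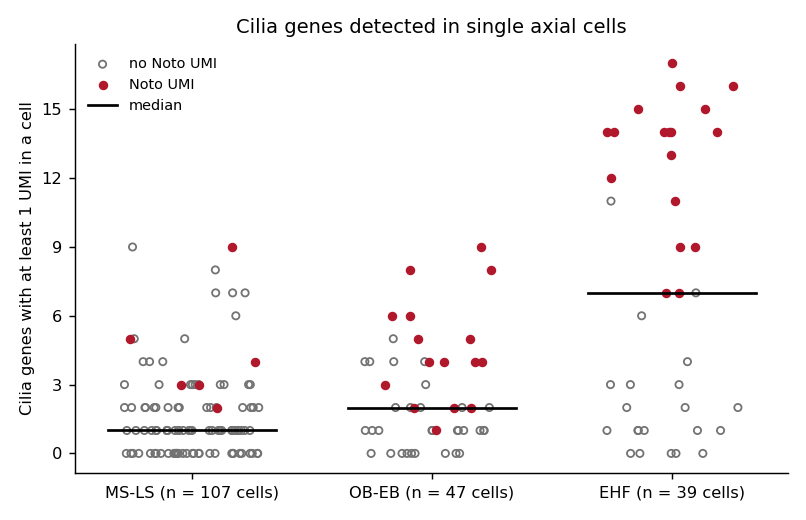
Number of cilia list genes with at least 1 UMI in each axial cell at the 3 stages (MS-LS, 107 cells, OB-EB, 47 cells, EHF, 39 cells), with cells that hold a *Noto* UMI filled in red, the other cells as open circles and the median of each stage as a line. All 18 *Noto* cells of EHF lie at 7 to 17 genes, and 18 of the 21 cells without *Noto* lie below 5.

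Cilia genes within EHF were concentrated in the axial cells with *Noto*, a split that was chosen after the values were seen. The 18 cells with a *Noto* UMI held 7 to 17 cilia genes (median 14), although their median depth of 2922 UMIs was below the 4863 of the 21 cells without *Noto*. The latter held 0 to 11 (median 1), and the 3 of them with at least 5 were the 3 cells whose partners were *Chrd* and *T*. The summed cilia list stood at 7978 CPM (7384 to 8607) with *Noto* and at 503 (383 to 649) without. *Foxj1* was at 681 (516 to 882) against 76.8 (35.1 to 146), and *Dynlrb2* at 872 (683 to 1096) against 17.1 (2.07 to 61.6).

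The 10 EHF cells with *Shh* and no *Noto*, again a group formed after the values were seen, differed from the *Noto* cells in further genes. They held 0 to 3 cilia genes, and *Fam183b*, *Dynlrb2* and *Tppp3* had 0 UMIs in them. *Cer1* had 49 UMIs in 9 of these 10 cells, 805 CPM (595 to 1064), against 2 UMIs in the 18 *Noto* cells. *Trh*, the prohormone of thyrotropin-releasing hormone and a marker of definitive endoderm, had 46 UMIs against 2, but 30 of the 46 came from 1 cell of 18387 UMIs. The keratins of simple epithelia *Krt8* and *Krt18* stood at 2808 (2403 to 3262) and 3547 (3090 to 4053), against 908 (715 to 1136) and 681 (516 to 882) in the *Noto* cells.

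Of other node and notochord genes, *Foxa1*, *Nog* and *Ptch1* had overlapping intervals in the groups with *Noto* and with *Shh* alone, and *Bicc1* did not. *Foxa1*, a forkhead factor close to *Foxa2*, was at 131 CPM in each (65.6 to 235 with *Noto*, 56.7 to 259 with *Shh* alone). *Nog*, the BMP antagonist noggin, was at 83.6 (33.6 to 172) with *Noto* and at 98.5 (36.2 to 214) without it, from 7 and 6 UMIs. *Ptch1*, the hedgehog receptor and itself a target of the pathway, was at 191 (109 to 310) and 131 (56.7 to 259). *Bicc1*, an RNA-binding protein that acts in the node, was higher with *Noto*, at 346 (232 to 497) and 98.5 (36.2 to 214).

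Genes of the streak and of visceral endoderm separated these groups too. The summed list of 12 streak genes was at 944 CPM (747 to 1176) with *Noto* and at 115 (46.2 to 237) in the *Shh* cells without it. The visceral endoderm list was at 836 (652 to 1056) and 5468 (4896 to 6088). Of the 263 *Spink1* UMIs of the EHF axial cells 249 were in 5 of these 10 cells, and 134 in a single cell. The part of other cell types, or of cells caught in pairs, in these values was not tested, and the *Shh* cells without *Noto* are therefore named by their rule alone.

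**Figure D3:**
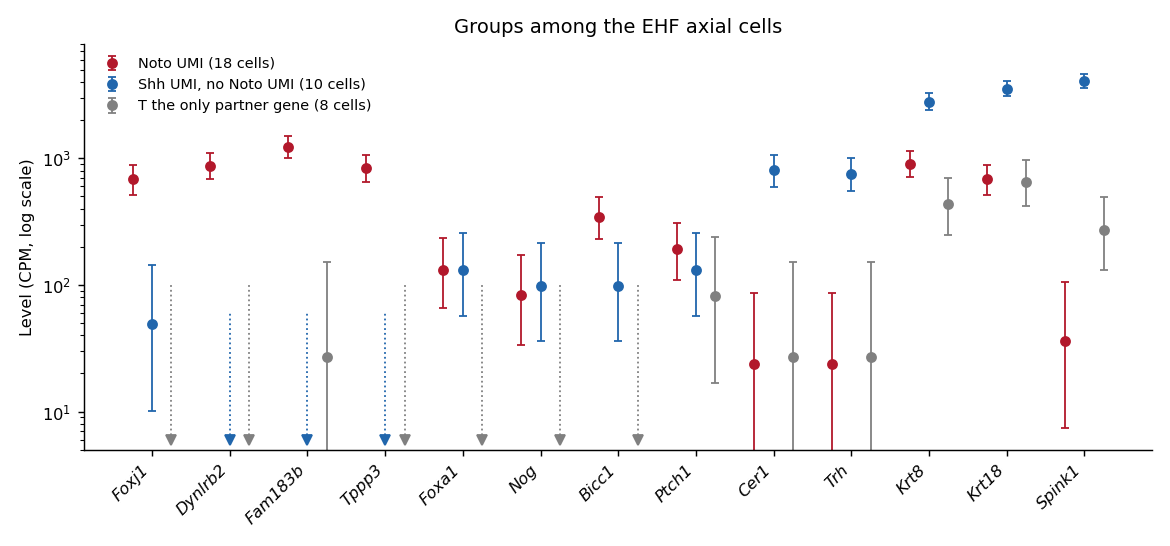
Level (CPM, log scale) of node, cilia, endoderm and epithelial genes in 3 groups of EHF axial cells, those with *Noto* (18 cells, red), those with *Shh* and no *Noto* (10 cells, blue) and those with *T* as the only partner (8 cells, grey). Points carry 95% counting intervals, and a triangle marks 0 UMIs, with a dotted line up to the upper limit. The 4 cilia genes on the left are highest in the red group, and *Cer1*, *Trh*, *Krt8*, *Krt18* and *Spink1* are highest in the blue group.

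OB-EB showed the same contrast between axial cells with *Noto* and no *Gsc* (14 cells) and those with *Gsc* and no *Noto* (11 cells). *Foxj1* stood at 382 CPM (218 to 621) against 62.4 (12.9 to 182), *1110017D15Rik* at 454 (273 to 709) against 20.8 (0.53 to 116) and the cilia list at 2174 (1751 to 2669) against 354 (206 to 566). The anterior streak list went the other way, at 980 (703 to 1329) against 2392 (1975 to 2871). *Lhx1* was at 47.8 (5.79 to 173) against 624 (421 to 891), and *Cer1* at 23.9 (0.60 to 133) against 229 (114 to 409). These 2 differences rest on few cells. Single *Gsc* cells held 11 and 9 of the *Lhx1* UMIs, and all *Cer1* UMIs of that group came from cells with 3, 3 and 5. A cell with both *Noto* and *Gsc*, outside both groups, held 9 *Lhx1* and 5 *Cer1* UMIs. With all 16 *Noto* cells set against the 31 without *Noto*, the cilia list kept its difference, 2147 (1751 to 2607) against 402 (303 to 523), but the anterior streak list did not, at 1305 (1001 to 1673) against 1550 (1348 to 1773).

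At MS-LS only 5 axial cells had *Noto* without *Gsc*, against 67 with *Gsc* without *Noto*, and few values could be set side by side. *Foxj1* had 4 UMIs in the former, 176 CPM (47.9 to 451), and 9 in the latter, 20.3 (9.29 to 38.6). *Fst* and *Mixl1* had 0 UMIs with *Noto* (interval 0 to 162), against 217 (176 to 265) and 158 (123 to 200) with *Gsc*, so for *Mixl1* a difference was not detectable at this depth. Splitting the MS-LS cells by *T* instead gave 54 and 53 cells with cilia list sums of 292 (244 to 348) and 334 (269 to 410), whose intervals overlap. *Dkk1*, a secreted Wnt antagonist, had 19 UMIs with *T* and 1 without.

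Between the stages, 646 of 4737 genes (13.6%) were at least 2-fold higher in EHF than in MS-LS axial cells and 519 (11%) were at least 2-fold lower. With an interval that also left out equal levels, 532 (11.2%) were higher and 327 (6.9%) were lower, and the counts of list genes between stages that follow use this rule. From MS-LS to OB-EB 301 of 4506 genes (6.68%) were higher and 446 (9.9%) lower at 2-fold, and 224 (4.97%) and 173 (3.84%) with the interval. From OB-EB to EHF these were 451 of 2731 genes (16.5%) and 314 (11.5%), and 367 (13.4%) and 254 (9.3%) with the interval. The median log2 ratio of all genes between EHF and MS-LS was 0.06. The balance between higher and lower genes rested on the settings, since EHF over MS-LS gave 336 higher and 614 lower with 2 *Foxa2* UMIs required, 78 and 192 in thinned cells, and 555 and 680 without high Scrublet scores.

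Of the 10 genes with the largest excess at EHF, 5 belonged to the cilia list and *Dnajb13* is a part of the ciliary axoneme. *Fam183b* went from 2 UMIs in 107 cells to 104 UMIs in 39, a log2 ratio of 7.52 (5.63 to 10.59), with 3.11 in the other cells. *Tppp3*, a microtubule-binding protein, and *Dynlrb2* followed at 6.39 (4.78 to 8.70) and 6.05 (4.63 to 7.96), with 2.89 and 1.98 in the other cells. *Dnajb13*, *Tekt1* and *Cfap126* lay between 4.43 and 5.04. *Dand5* had 0 UMIs at MS-LS and 33 at EHF, at least 38.9-fold higher if the MS-LS cells are given 3 UMIs in all (5.28 on the log2 scale), while in the other cells its ratio was 0.99. *Krt19* and *Bicc1* were at 5.19 (3.51 to 7.54) and 4.96 (3.63 to 6.65), with 0.81 and 0.67 in the other cells, so all of these ratios exceeded those of the other cells.

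*Gal*, which encodes the peptide galanin, was also 0 at MS-LS and had 49 UMIs at EHF, at least 5.85 higher on the log2 scale by the same floor of 3 UMIs, but its ratio in the other cells was 5.11. The 10 genes with the largest deficit at EHF were all lower in the other cells as well. *Loxl2*, a lysyl oxidase of the matrix, went from 603 CPM (547 to 663) to 14.9 (3.08 to 43.6), a ratio of −5.34, with −4.14 in the other cells. *Xaf1* had −5.15 and −5.19, *Spry2*, a feedback inhibitor of FGF signals, −4.10 and −3.53, and *Golga3*, a Golgi protein, −4.34 and −3.52. *Tdgf1*, the *Nodal* co-receptor Cripto, had 233 UMIs at MS-LS and 0 at EHF, at least 4.46 lower on the log2 scale by that floor, with −6.65 in the other cells. *Gm13075*, *Gm38299*, *Dennd5b*, *Noa1* and *Mtg2*, with −4.04 to −4.87 in the axial cells, were at −2.39 to −6.39 in the others, so the lower levels were common to both.

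**Figure D4:**
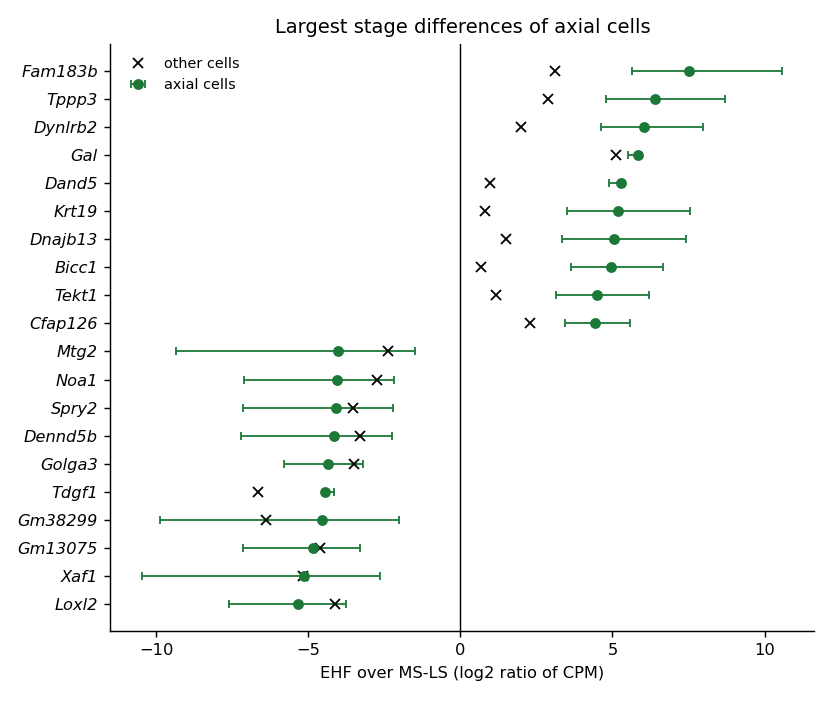
Log2 ratio of CPM, EHF over MS-LS, for the 10 genes with the largest ratio in each direction in axial cells (green points with 95% counting intervals) and in all other cells (crosses). *Gal*, *Dand5* and *Tdgf1* are bounds against a floor of 3 UMIs. For all 10 genes that were higher the cross lies below the interval or the bound, least so for *Gal* (5.11 against a bound of 5.85), and the crosses of the 10 genes that were lower lie far to the left as well.

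By list, 8 of the 8 node and notochord genes with enough UMIs and 11 of the 12 cilia genes were higher at EHF than at MS-LS, and none was lower. Many of them passed the minimum through the EHF cells, with 2 to 6 UMIs at MS-LS for *Fam183b*, *Vtn*, *Tppp3*, *Dynlrb2*, *Tekt1*, *Bicc1* and *Slit2*, so these counts and their medians describe the genes and support nothing. *Calca*, the gene of calcitonin and its related peptide, stood at 47.9 CPM (33.2 to 66.9) at MS-LS, 149 (101 to 213) at EHF, and 8.17 and 5.60 in the other cells. *Slit2*, a secreted guidance ligand, went from 8.45 to 99.5, and *Ptch1* from 26.8 to 144. *Foxa1* went from 14.1 (6.75 to 25.9) to 94.5 (56.9 to 148), with a log2 ratio of −0.78 in the other cells. The median log2 ratios of the 2 lists, which share *Foxj1*, were 3.29 and 4.12 against 0.69 and 0.54 for the same genes in the other cells.

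Of the anterior streak genes 8 of 11 were lower at EHF, 1 was higher and 2 were neither. *Eomes* went from 280 CPM (243 to 322) to 29.9 (11.0 to 65.0), *Lhx1* from 206 (174 to 242) to 69.7 (38.1 to 117) and *Hes1*, a target of Notch signals, from 1003 (930 to 1079) to 105 (64.7 to 160). *Cer1* was the exception, at a ratio of 1.16 (0.63 to 1.67). The other cells had ratios of −3.10, −2.61 and −3.19 for the first 3 of these genes and −1.68 for *Cer1*, and the list's median was −1.80 in the axial cells and −1.65 in the others. Epiblast genes were lower in 8 of 9 cases, for example *Pou5f1*, the pluripotency factor Oct4, at −1.55 (−2.05 to −1.09) with −0.94 in the other cells, and 4 of 6 FGF pathway genes were lower, among them *Fgf8* at −3.84 (−6.14 to −2.27) with −1.80.

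Signalling genes were read against the other cells of each library. Of the *Nodal* pathway, 3 of 4, 2 of 3 and 2 of 3 genes with enough UMIs were higher at MS-LS, OB-EB and EHF and none was lower, beside 1.8%, 2.48% and 6.92% of all genes. *Tdgf1* and *Cer1* at OB-EB, and *Cer1* and *Dand5* at EHF, passed the minimum only through the axial cells. The OB-EB and EHF counts therefore support nothing. Against the *Foxa2* and *Sox17* cells the summed list was lower in the axial cells, by −0.62 (−0.80 to −0.43), −1.01 (−1.36 to −0.66) and −1.44 (−1.76 to −1.12). *Tdgf1* led at the first stages, at 328 CPM (287 to 373) against 139 and at 233 (169 to 314) against 81.2, and *Cer1* and *Dand5* at EHF. *Dand5* reached 164 (113 to 231) against 4.36, in 10 of the 39 axial cells, 6 of them with *Noto*. Of the 6 BMP pathway genes at MS-LS the antagonist *Fst* was higher, and the response genes *Id1* and *Id2* were lower, with log2 ratios of −1.01 (−1.50 to −0.56) and −1.91 (−2.25 to −1.60), and *Id2* again at EHF with −1.38 (−1.95 to −0.87). *Id3* was at 0.06 at MS-LS, so the targets of this pathway did not move as one.

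Hedgehog, Wnt, FGF and retinoic acid lists gave few genes with enough UMIs. *Ptch1* was the only hedgehog gene called, at EHF, with 144 CPM (96.6 to 207) against 41.5. *Sp5*, a target of Wnt signals, was higher at MS-LS and EHF, at 36.6 (23.9 to 53.7) and 124 (80.5 to 184) against 14.8 and 24.9. *Frzb*, a secreted Wnt antagonist, and *Lef1*, a nuclear partner of β-catenin, were higher at MS-LS, with ratios of 1.29 (0.87 to 1.68) and 1.04 (0.61 to 1.44). *Fgf5* and *Fgf8* were higher at MS-LS, at 1.23 (0.96 to 1.49) and 1.30 (1.05 to 1.54). *Cyp26a1*, which degrades retinoic acid, was higher at OB-EB, at 152 (101 to 220) against 58.4. At least *Ptch1*, *Cyp26a1* and, at both stages, *Sp5* passed the minimum only through the axial cells. Their calls therefore describe the genes and support nothing.

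Epithelial genes were higher in the EHF axial cells than in the other EHF cells, but not than in the *Foxa2* and *Sox17* cells. Against the latter the summed list was at 4155 CPM (3877 to 4446) and 4316 (3938 to 4721), a log2 ratio of −0.06 (−0.22 to 0.11), and at MS-LS and OB-EB it was lower in the axial cells, by −0.47 and −0.77. Of the list 0 of 9, 0 of 4 and 5 of 6 genes with enough UMIs were higher, beside 1.8%, 2.48% and 6.92% of all genes. At MS-LS 2 of 9 were lower, beside 4.06% of all genes. *Krt19* passed the minimum at EHF only through the axial cells. *Krt8* stood at 78.9 CPM (59.6 to 102), 119 (74.8 to 181) and 1428 (1268 to 1603), and *Krt18* at 93.0 (71.9 to 118), 136 (87.8 to 200) and 1602 (1432 to 1787). The other cells were at 102, 71.9 and 268 for *Krt8* and at 191, 133 and 432 for *Krt18*. The adhesion genes *Cdh1* and *Cldn6* had ratios of 1.49 (0.96 to 1.97) and 1.74 (1.38 to 2.07) at EHF, where *Cldn6* had a UMI in 76.9% of the axial cells. Within EHF the list stood at 2651 (2314 to 3024) in the cells with *Noto* and at 5228 (4822 to 5659) in those without, while *Cdh1* and *Cldn6* had overlapping intervals in both.

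Markers of other cell types were low or mixed. All 12 visceral endoderm genes with enough UMIs at MS-LS were lower, as were 8 of 8 at OB-EB and 5 of 7 at EHF. Of all genes 4.06%, 1.88% and 2.87% were lower, but 5 of the 13 genes of this list belong to the rule. *Ttr*, a secreted carrier and not in the rule, was at 36.6 CPM (23.9 to 53.7), 54.3 (26.0 to 99.8) and 54.7 (27.3 to 97.9) against 834, 590 and 1148. The other cells held the 720, 368 and 386 cells with at least 3 visceral endoderm genes that the rule left out, so these lower levels follow from the rule. Against cells with *T* and without *Foxa2*, under the same limit, the list ratio was 0.04 (−0.12 to 0.20) at MS-LS and −0.05 (−0.34 to 0.24) at OB-EB. Against the *Foxa2* and *Sox17* cells it was −0.95 and −3.84. Endothelial genes summed to 21, 9 and 1 UMIs, erythroid genes to 1, 0 and 8, and trophoblast genes to 20, 0 and 14. Definitive endoderm genes were higher in 2 of 7, 1 of 2 and 5 of 5 cases, beside 1.8%, 2.48% and 6.92% of all genes. Of the 7 at MS-LS, 1 was lower. *Cer1* at OB-EB and at least *Cer1* and *Krt19* at EHF passed the minimum only through the axial cells. The OB-EB and EHF counts of this list therefore support nothing. At EHF *Emb*, a cell adhesion protein, stood at 2498 (2284 to 2726) against 733, and *Trh*, *Krt19* and *Cldn6*, which other lists or groups hold as well, were among the 5.

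Few proliferation genes differed between the axial and the other cells. None of 26, none of 10 and none of 16 with enough UMIs was higher, and the cyclin gene *Ccne1* was the only one called lower, at EHF. The summed list of replication and mitosis genes had log2 ratios of 0.08 (0.02 to 0.14), 0.12 (0.00 to 0.23) and −0.09 (−0.21 to 0.02). Under other settings it ran from 0.04 to 0.26, from 0.03 to 0.26 and from −0.43 to −0.07, so the size of the EHF difference depended on which cells were taken and how they were weighted. Within EHF the list stood at 2735 CPM (2392 to 3113) in the cells with *Noto* and at 3727 (3386 to 4093) in those without, a ratio of −0.45 (−0.68 to −0.21). *Btg1*, a gene that restrains proliferation, was at 194 (138 to 265) in the EHF axial cells against 43.1 in the other cells.

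**Figure D5:**
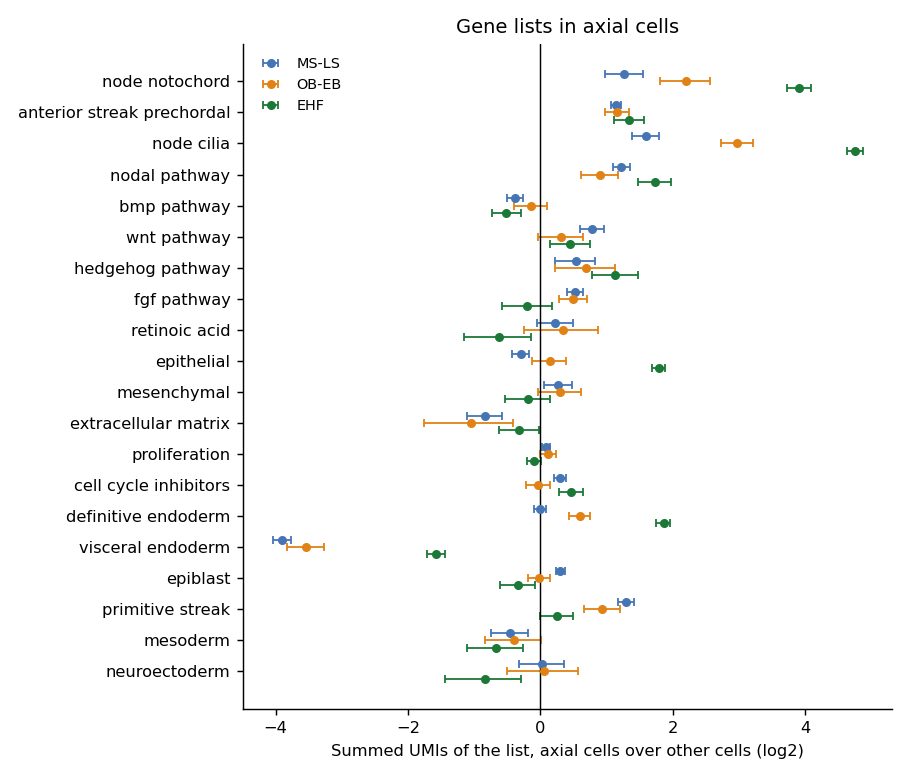
Log2 ratio of the summed UMIs of each gene list, axial cells over the other cells of the same library, at MS-LS (blue), OB-EB (orange) and EHF (green), with 95% counting intervals and a line at equal levels. The ratios of the node and notochord list (1.27, 2.20 and 3.91) and of the cilia list (1.59, 2.97 and 4.76) are larger at each later stage, and the proliferation list lies between −0.09 and 0.12.

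The axial cells were also set beside the groups most like them, cells with *Foxa2* and *Sox17* (47, 31 and 26 cells) and cells with *T* and without *Foxa2* (365, 591 and 604 cells). The cilia list was higher in the axial cells than in the *Foxa2* and *Sox17* cells by 1.03 on the log2 scale (0.61 to 1.47) at MS-LS, 3.55 (2.67 to 4.58) at OB-EB and 4.84 (4.09 to 5.72) at EHF. Against the *T* cells without *Foxa2* it was higher by 1.15 (0.89 to 1.41), 2.46 (2.18 to 2.74) and 3.46 (3.33 to 3.60). *Cer1* went the other way against the *Foxa2* and *Sox17* cells, which held 629 CPM (553 to 712) at MS-LS and 891 (747 to 1055) at OB-EB, and at EHF the interval of its ratio, −0.38 (−1.01 to 0.26), covered equal levels. *Fst* was lower in the *Foxa2* and *Sox17* cells at MS-LS, at 43.5 (25.3 to 69.6), and higher at EHF, at 1460 (1244 to 1703). The anterior streak list was lower in the axial cells than in these endoderm cells at all 3 stages, by −0.46, −0.57 and −1.40, and higher than in the *T* cells without *Foxa2* by 0.54, 0.66 and 0.61.

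The tdTomato reporter marks cells that expressed *T*, or descend from such cells, after tamoxifen. It had a UMI in 0 of 107 axial cells at MS-LS, where the exact interval runs to 3.39% (2.80% by a limit of 3 cells). A UMI was found in 2 of 47 at OB-EB (4.26%, 0.520 to 14.5) and in 12 of 39 at EHF (30.8%, 17.02 to 47.6). For the libraries before EHF, the paper reports too few reporter reads to pick out marked cells. The values are thus shares of cells with a reporter UMI, and the 0 does not show that the label was absent. In the other cells the shares were 2.13%, 3.29% and 11.3%, and in the trophoblast cells 1.75%, 0% and 2.13%, at greater depth. Among *T* cells without *Foxa2* they were 4.11%, 3.72% and 34.4%, and none of the 26 *Foxa2* and *Sox17* cells of EHF had a reporter UMI. Thinned to 2000 UMIs, 13.9% (4.67 to 29.5) of the EHF axial cells and 14.2% (11.5 to 17.3) of the *T* cells without *Foxa2* had one, so no difference between them was detectable at this depth. By group, 3 of the 18 *Noto* cells and 9 of the 21 cells without *Noto* had a reporter UMI, and these shares of 16.7% (3.58 to 41.4) and 42.9% (21.8 to 66.0) have overlapping intervals.

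Cells caught in pairs in 1 droplet were not removed by the authors' stated steps and were kept. Leaving out the 5% of each library with the highest Scrublet scores, a measure of likeness to simulated pairs, took 6, 1 and 11 axial cells. At EHF these were 28.2% of the axial cells, 5 with *Noto* and 6 without, and their median depth was 7228 UMIs against 3856 in those kept. The cilia list ratio at EHF was 5.21 without them.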

How the data were processed

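The authors loaded pooled embryo cells on the Chromium 3′ v2 assay, counted UMIs with Cell Ranger 3.0.2 against GRCm38 (Ensembl release 86) with reporter sequence added, and removed cells with under 500 genes, under 1000 UMIs or a high mitochondrial share. The deposited values are raw counts per gene and cell, without normalization, and all deposited cells were used. UMIs were summed over groups of cells and scaled to CPM in Python 3.11.15 with numpy 2.4.6, scipy 1.17.1 and pandas 2.3.3. Ratios carry the exact interval of a ratio of Poisson sums, and a group at 0 was set to 3 UMIs. The steps were run on Poisson counts simulated for the MS-LS comparison over 4104 genes, where 95% of the intervals held the true ratio. The intervals assume such counts, so this checks the computation only and not the spread of UMIs between cells. Promoters are from RefSeq, Scrublet ran in scanpy 1.11.5, and thinning drew 2000 UMIs per cell. Genes named are the rule's genes, list genes with the largest ratios, and the 10 largest ratios per library (at least 20 UMIs and 20% of axial cells) and per direction between EHF and MS-LS (at least 30 UMIs). The rule's genes, mitochondrial, ribosomal, sex-linked and reporter features were left out of the rankings, and genes beyond these rules, such as *Larp7*, were picked from the results. The members, lists and comparisons were chosen with earlier results of these data known. No sample columns were left unused.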

Additional observations from a re-analysis of the deposited data

Results flagged for a closer look

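Genes whose ratio of axial cells over other cells pointed in opposite directions at EHF and MS-LS, with at least 2-fold at both, were picked out. *Krt18* had a log2 ratio of 1.89 at EHF and −1.04 at MS-LS, and *Phlda1* one of 1.52 at EHF and −1.32 at MS-LS. With 1 library per stage, the difference between the stages was not tested.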

How the results depend on the processing

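In all, 108 of 162 recomputed values stayed within their limits and 54 moved, over 16 alternatives. The 2 alternatives on *Noto* cells and on cilia gene cells were added after seeing the data. No ratio of the cilia or proliferation list changed sign. Some of the 108 values had little room to move. The second EHF table holds the same counts, and the mitochondrial limit kept all 107, 47 and 39 axial cells. The tally is therefore no measure of how stable the results are. The cilia list ratio stayed between 1.06 and 2.03 at MS-LS, 2.58 and 3.78 at OB-EB and 4.66 and 5.90 at EHF.

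With 2 *Foxa2* UMIs required, 49, 10 and 9 cells remained, 20 and 63 genes were past 2-fold at OB-EB and EHF (65 and 174 in the report), and the EHF proliferation ratio was −0.39. With no visceral endoderm gene allowed, the cells were 20, 17 and 20, the genes 50 and 23 at MS-LS and OB-EB and 386 between EHF and MS-LS (247, 65 and 1165 in the report), the proliferation ratios 0.26 at MS-LS and −0.43 at EHF, and the reporter share 15%. Thinned to 2000 UMIs, the cells were 44, 24 and 16, the genes 36, 17 and 44 by stage and 270 between stages, and the proliferation ratios 0.26 at OB-EB and −0.29 at EHF. A minimum of 50 UMIs gave 95, 17, 51 and 434 genes and no minimum 3145, 3032, 4126 and 6597, of which 65.4%, 77.6%, 77.9% and 87.7% were higher, against 30.8%, 56.9%, 70.7% and 55.5% in the report, since genes of few UMIs then entered. The share higher among genes between EHF and MS-LS was 35.4% with 2 *Foxa2* UMIs, 44.0% with no visceral endoderm gene, 28.9% thinned, 41.7% at 50 UMIs and 44.9% without high Scrublet scores, so lower genes were then the more numerous. Against the other cells it was 25% and 41.2% at OB-EB with 2 *Foxa2* UMIs and at 50 UMIs, 43.3% and 44.4% at MS-LS with 2 *Foxa2* UMIs and thinned, and 54.5% to 57.1% at EHF with these. The EHF proliferation ratio was −0.24 without high Scrublet scores, −0.25 as a mean of per-cell shares and −0.37 in *Noto* cells, whose reporter share was 16.7%. The cause was not tested beyond the fewer cells and genes that each setting leaves.

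No paired analysis was possible because each stage is 1 library and the only shared replicate number belongs to the second EHF table, which holds the same counts. Leaving out a replicate would leave no library. Depth limits all genes of few UMIs, since 184313 UMIs at OB-EB allow 1490 genes to be compared, against 4214 at MS-LS.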

Other observations

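Lists of other tissues gave further values for the axial cells. Of the primitive streak list 5 of 5, 2 of 4 and 1 of 4 genes with enough UMIs were at least 2-fold higher than in the other cells at MS-LS, OB-EB and EHF and none was lower. Of all genes 1.8%, 2.48% and 6.92% were higher, and *Eomes* at OB-EB and *Sp5* at MS-LS and EHF passed the minimum only through the axial cells. The log2 ratio of the summed list was 1.29 (1.17 to 1.41), 0.93 (0.66 to 1.20) and 0.25 (−0.01 to 0.49). The epiblast list stood at 0.30 (0.23 to 0.38), −0.02 (−0.19 to 0.14) and −0.34 (−0.61 to −0.08). The mesoderm list was at −0.46, −0.40 and −0.67 and the neuroectoderm list at 0.03, 0.06 and −0.83, from 27 to 107 UMIs a list and stage.

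Extracellular matrix genes were lower in sum than in the other cells at all 3 stages, at −0.84 (−1.11 to −0.58), −1.05 (−1.76 to −0.42) and −0.32 (−0.62 to −0.03). The other cells include visceral endoderm gene cells, where this list stood at 742 CPM at MS-LS. Against *T* cells without *Foxa2* its ratio at MS-LS was −0.21 (−0.51 to 0.09), and against *Foxa2* and *Sox17* cells −0.39 (−0.80 to 0.02). At OB-EB these ratios were −0.90 and −1.32, with intervals that left out equal levels. The mesenchymal list was at 0.27, 0.30 and −0.18. Its member *Cdh2*, the adhesion protein N-cadherin, had ratios of 1.25 at MS-LS and 1.15 at OB-EB, and 19 UMIs, too few for a call, at EHF.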
